A study of Mus musculus with 18 samples.

Results

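The 10 genes described here are B cell progenitor and V(D)J recombination genes of the mouse, chosen by name: the recombination enzymes Dntt, Rag1 and Rag2, the surrogate light chain genes Vpreb1, Vpreb2 and Igll1 with their relative Vpreb3, and the early B lineage regulators Ebf1, Pax5 and Il7r. All 10 were listed among the 14423 genes tested in bone marrow, and 7 among the 21830 genes tested in spleen. Spleen values of Rag2, Vpreb2 and Igll1 were not analysed here. The mice were C57BL/6. Cgas-/- mice lack cGAS, the DNA sensor that makes cGAMP, and dKO mice are Trex1-/-;Sting1gt/gt, so that they lack the exonuclease TREX1 and functional STING, the receptor of cGAMP. The bone marrow comparison sets 4 Cgas-/- libraries against 4 dKO libraries. The spleen comparison sets 5 libraries from recipients of Cgas-/- marrow against 5 from recipients of dKO marrow, all recipients being lethally irradiated dKO mice sampled 12 weeks after transplantation. Neither comparison holds a wild-type group, and age, sex and the share of donor cells in the spleens were not stated by the sources. RNA of suspended cells was read by QuantSeq, which gives tags from the 3' end of each transcript, so that the count does not scale with transcript length. Each gene has a mean normalized count over the libraries of a comparison and a log2 fold change with its standard error. The group means given below were computed from that mean and fold change for groups of equal size. The tables give no value for a single library, so the overlap of the groups and the depth per library are unknown.

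V(D)J recombination builds the variable part of immunoglobulin and T cell receptor genes in developing lymphocytes. RAG1 and RAG2 together form the nuclease that cuts at recombination signals, and terminal deoxynucleotidyl transferase, encoded by Dntt, adds untemplated nucleotides before the ends are joined. In progenitor B cells a rearranged heavy chain first pairs with the surrogate light chain, made of a VpreB and a lambda5 protein, and the resulting pre-B cell receptor drives expansion. EBF1 and PAX5 are the transcription factors that specify and maintain B cell identity, and the IL-7 receptor carries the survival signal of early B cells in mouse bone marrow.

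Vpreb1 and Vpreb2 are near-identical copies on mouse chromosome 16, and their likeness bears on how far their tags can be told apart. Their last 120 coding bases before the stop codon are shown from the GENCODE M21 transcripts, with the bases that differ between them in capitals.
Vpreb1: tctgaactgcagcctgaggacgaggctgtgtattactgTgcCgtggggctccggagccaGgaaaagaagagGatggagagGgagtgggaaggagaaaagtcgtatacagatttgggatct
Vpreb2: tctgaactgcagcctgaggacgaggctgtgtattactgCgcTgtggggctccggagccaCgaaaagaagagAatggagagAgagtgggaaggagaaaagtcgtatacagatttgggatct
These stretches are identical at 115 of 120 bases. Over the last 300 bases of the 2 transcripts, 288 bases were identical (96.0%), and 30 of the 251 windows of 50 bases (12.0%) were the same in both genes. The authors' counting could therefore have split tags between Vpreb1 and Vpreb2, and their single values are uncertain. None of the transcript ends of Dntt, Rag1, Rag2, Vpreb3, Igll1, Ebf1 or Pax5 shared a window of 50 bases with a transcript of another gene. Of the Il7r ends, 4 of 251 windows did so.

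The regions before the start sites of Dntt and Igll1 are shown because Dntt was the 1 member past the test and Igll1 was the 1 member whose region held the core motif of EBF1. Both are the 250 bases before the RefSeq start on GRCm38.p6, the Dntt region at chr19:41029025-41029274 on the plus strand and the Igll1 region at chr16:16863986-16864235 on the minus strand. Capitals mark the EBF1 core motif CCCNNGGG and the E-box CAGNTG, the type of site that E2A proteins bind, each searched on both strands. The motif matches do not overlap.
Dntt: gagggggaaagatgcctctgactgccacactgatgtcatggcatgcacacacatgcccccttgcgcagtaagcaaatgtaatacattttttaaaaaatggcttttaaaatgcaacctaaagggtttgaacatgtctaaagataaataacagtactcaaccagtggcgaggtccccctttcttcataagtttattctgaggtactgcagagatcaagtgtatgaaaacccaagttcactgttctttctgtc
Igll1: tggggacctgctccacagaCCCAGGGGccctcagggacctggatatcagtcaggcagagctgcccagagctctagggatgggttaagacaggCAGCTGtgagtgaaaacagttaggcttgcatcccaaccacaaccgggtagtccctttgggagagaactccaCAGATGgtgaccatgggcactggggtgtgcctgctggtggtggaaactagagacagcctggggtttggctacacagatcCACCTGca
The Igll1 region held CCCNNGGG with its first base 231 bases before the start and CAGNTG at 158, 87 and 8 bases before it, while the Dntt region held neither. RefSeq gave 11 such regions for the 10 members, with 2 for Ebf1. Of these, 1 held CCCNNGGG, a motif found in 11.8% of the 32851 regions of this length before RefSeq starts. CAGNTG was in 6 of the 11, those of Rag1, Vpreb1, Vpreb2, Vpreb3, Igll1 and Il7r, and in 44.8% of all regions. The Vpreb1 and Vpreb2 regions hold 190 and 137 bases of exons that GENCODE M21 annotates for these genes. Part of each therefore lies after a GENCODE start. By the GENCODE gene bounds, the regions of Vpreb3, Il7r and Ebf1 also lie after the starts of their genes. Exons within those regions were not looked up. A match is a description of these letters, not a site of binding.

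In bone marrow, log2 fold changes were 0.27 to 0.64 for the recombination enzymes and 0.04 to 0.21 for the lineage regulators. The surrogate light chain genes with Vpreb3 spanned 0.08 to 1.13. Dntt was 1.56-fold higher in Cgas-/- marrow and was the 1 member that rose past the test. Vpreb1 and Vpreb2 had larger estimates, with wider errors, and did not pass over all genes. Pax5 and Vpreb3 were within 0.08 of 0 on the log2 scale. By DESeq2, as the authors' deposited table lists it, 1 of the 10 members passed the threshold of 0.05 on the adjusted p, upward, where 0.173% of all genes tested were called higher and 0.534% were called in either direction. With an unadjusted p below 0.05, 4 members were higher and none lower, where 4.19% of all genes were higher and 4.65% lower. All 10 log2 fold changes were above 0, as were 49.5% of those of all genes, and the members' median was 0.35 beside -0.00 for all genes tested. These members were chosen with results of the series known, so the counts are a description, and differences between members, measured in the same libraries, were not tested.

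**Figure D1:**
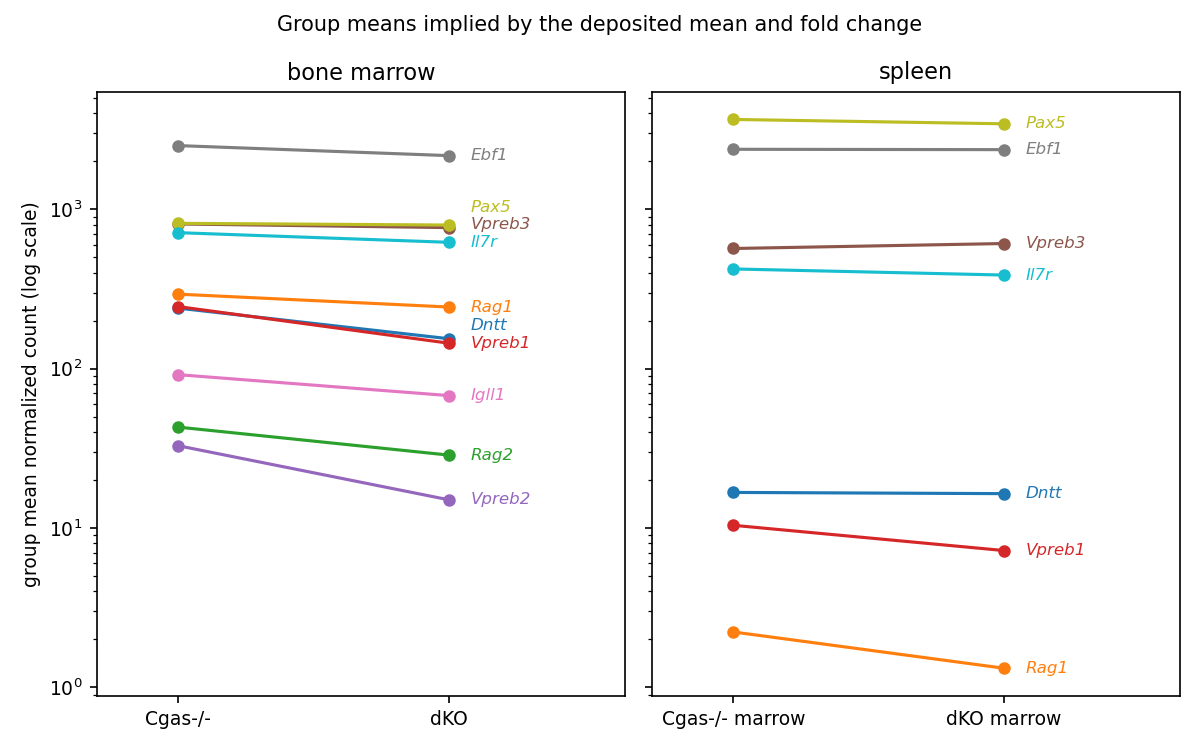
Group mean normalized counts (log scale) of the members, computed from the authors' deposited means and fold changes, with Cgas-/- at the left and dKO at the right of each panel; bone marrow has 4 libraries a group, and spleen, where the groups differ by marrow genotype, has 5. Every bone marrow line is higher at Cgas-/-, most of all for Vpreb2 (32.8 and 15.0), and in spleen Dntt, Vpreb1 and Rag1 lie far below Ebf1 and Pax5.

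Among the recombination enzymes, Dntt had a computed mean of 239.9 normalized counts in Cgas-/- marrow and 154.2 in dKO marrow. In the authors' deposited table its log2 fold change was 0.64 ± 0.166 (standard error, as throughout; 4 libraries each), with an adjusted p of 0.0311 by DESeq2 and a rank by p of 58 among 14423 genes. The 95% interval of the fold was 1.24 to 1.95. When the Wald score, which is the log2 fold change over its standard error, was divided by its robust standard deviation of 1.10 over well-measured genes, the adjusted p was 0.121 and the call ended. Dntt lies on chromosome 19 at 41029275 to 41059525 on GRCm38, on the plus strand, and overlaps no other annotated gene.

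Rag1, the catalytic subunit of the recombinase, had a computed mean of 293.6 normalized counts in Cgas-/- marrow and 243.8 in dKO marrow. The authors' deposited table listed a log2 fold change of 0.27 ± 0.190 for it, which did not pass (adjusted p = 0.792 by DESeq2). Rag2, its essential partner, had 43.0 normalized counts in Cgas-/- marrow and 28.7 in dKO marrow. Its log2 fold change in the authors' deposited table was 0.58 ± 0.330 (adjusted p = 0.655 by DESeq2), close in size to that of Dntt but with a wider error. The intervals of both Rag genes include 0, at -0.10 to 0.64 for Rag1 and -0.06 to 1.23 for Rag2 on the log2 scale. Both lie on chromosome 2, Rag1 at 101638282 to 101649501 on the minus strand and Rag2 at 101624718 to 101632529 on the plus strand. Both overlap the annotated gene B230118H07Rik, Rag1 on the same strand and Rag2 on the opposite one. Their reads may therefore be mixed with reads of that gene. Of the other members, Vpreb1, Vpreb3, Ebf1 and Pax5 overlap annotated genes on the opposite strand. Pax5 also overlaps 1 on the same strand, Mir5120. The transcript ends of these members shared no such window with the genes they overlap. Mixing with other reads remains possible for them too and was not tested.

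Of the surrogate light chain genes, Vpreb1 had a computed mean of 245.3 normalized counts in Cgas-/- marrow and 144.6 in dKO marrow. In the authors' deposited table its log2 fold change was 0.76 ± 0.215, a 1.7-fold difference that lay just outside the threshold (adjusted p = 0.0638 by DESeq2). Its copy Vpreb2 had 32.8 normalized counts in Cgas-/- marrow and 15.0 in dKO marrow. Vpreb2 had the highest log2 fold change of the members, 1.13 ± 0.456, and one of the lowest levels, with an adjusted p of 0.348 by DESeq2 in the authors' deposited table. The interval of its fold, 1.18 to 4.06, contains the Vpreb1 estimate. Igll1, which encodes lambda5, the partner of VpreB in the surrogate light chain, had 91.7 normalized counts in Cgas-/- marrow and 67.8 in dKO marrow. Its log2 fold change in the authors' deposited table was 0.44 ± 0.238 (adjusted p = 0.625 by DESeq2).

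Vpreb3, a relative of the VpreB genes that B cells also express after the pre-B stage, differed little. It had 810.0 normalized counts in Cgas-/- marrow and 768.5 in dKO marrow, with a log2 fold change of 0.08 ± 0.147 in the authors' deposited table (adjusted p = 0.965 by DESeq2). Its interval, -0.21 to 0.36 on the log2 scale, overlaps those of Vpreb1 (0.34 to 1.18), Vpreb2 (0.23 to 2.02) and Igll1 (-0.03 to 0.90). The overlap with Vpreb1 is narrow, and overlap of intervals is no test of a difference. The estimates of the 4 genes spanned log2 fold changes of 0.08 to 1.13, a spread that was not tested. On GRCm38, Igll1 (16860671 to 16863985, minus strand), Vpreb1 (16868403 to 16870843, minus strand) and Vpreb2 (17980428 to 17981273, plus strand) lie on chromosome 16. Vpreb3 is on chromosome 10 at 75943057 to 75949657.

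Among the early B lineage regulators, Ebf1 was the most abundant member in marrow, with a computed 2514 normalized counts in Cgas-/- marrow and 2175 in dKO marrow. Its log2 fold change in the authors' deposited table was 0.21 ± 0.113 (adjusted p = 0.617 by DESeq2). Il7r had 714.2 normalized counts in Cgas-/- marrow and 621.3 in dKO marrow, with 0.20 ± 0.0968 on the log2 scale and an adjusted p of 0.515 by DESeq2 in the authors' deposited table, where its unadjusted p was 0.0378. Pax5 had the smallest change of the 10, with 817.5 normalized counts in Cgas-/- marrow and 797.4 in dKO marrow and a log2 fold change of 0.04 ± 0.146 (adjusted p = 0.992 by DESeq2, authors' deposited table). The fold intervals were narrow for these well-measured genes, 0.99 to 1.35 for Ebf1, 1.01 to 1.31 for Il7r and 0.84 to 1.25 for Pax5. Each overlaps the Dntt interval of 1.24 to 1.95, for Pax5 only barely. Overlap of intervals is no test of a difference between genes, and none was run. Ebf1 lies on chromosome 11 at 44617317 to 45008091, Pax5 on chromosome 4 at 44524757 to 44710487 and Il7r on chromosome 15 at 9505788 to 9530176.

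**Figure D2:**
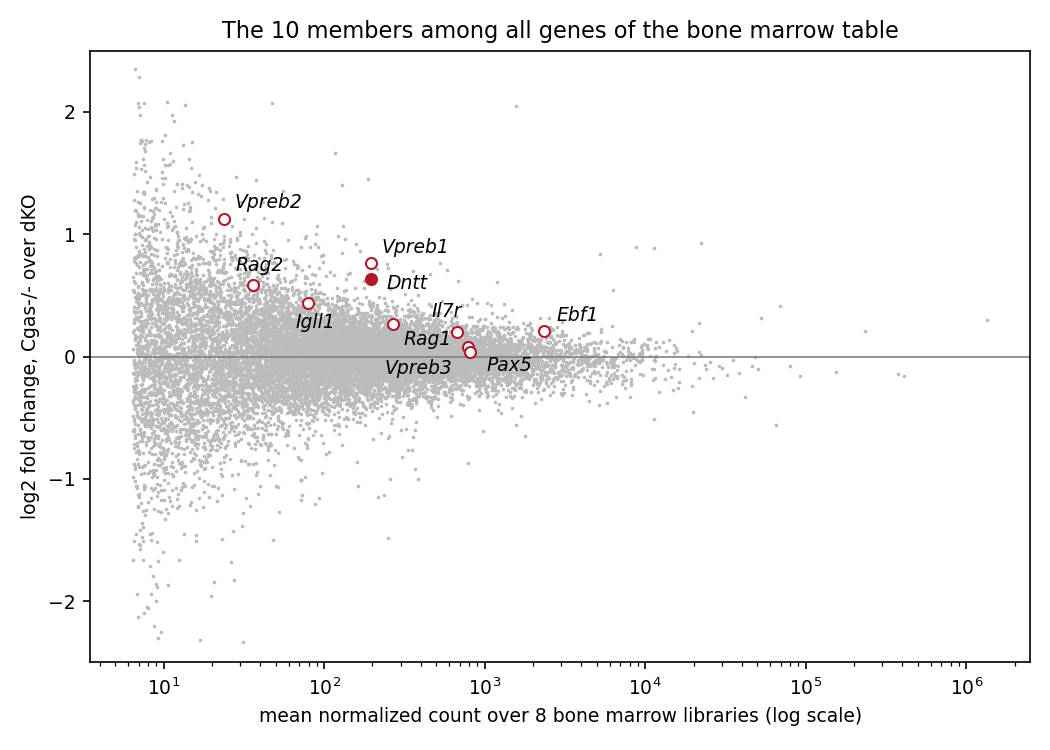
Log2 fold change, Cgas-/- over dKO, against the mean normalized count over the bone marrow libraries (log scale) for all genes of the authors' deposited table (grey; 15 genes beyond 2.5 on the log2 scale are off the axis) and the 10 members (red, filled where the adjusted p is under 0.05). The members all lie above 0, with Vpreb2 highest at a mean of 23.9, Pax5 lowest at a mean of 807.5 and Ebf1 at 2344.

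Lists of genes that work with the members in the same steps had medians nearer to 0 in marrow than the members' 0.35, a difference that was not tested. Of 20 other early B lineage regulators, none passed over all genes by DESeq2 in the authors' deposited table, and with an unadjusted p below 0.05 there were 6 higher and 1 lower (median 0.13). Tcf4, an E protein related to E2A, had 0.32 ± 0.0875 (adjusted p = 0.0534 by DESeq2) and Irf8, a regulator of B and myeloid cells, 0.23 ± 0.0741 (adjusted p = 0.173 by DESeq2) in the authors' deposited table. The lower one was Id2, an inhibitor of E proteins, at -0.20 ± 0.0855 in the authors' deposited table (adjusted p = 0.396 by DESeq2), named because its value had been seen. Of 15 end joining and accessory factors of V(D)J recombination, none passed, 3 were higher with an unadjusted p below 0.05 and none lower, and the median was 0.05. Hmgb1, a DNA-bending cofactor of the RAG complex, had 0.20 ± 0.0639 (adjusted p = 0.154 by DESeq2) and Xrcc6, the Ku70 subunit that binds broken ends, 0.28 ± 0.137 (adjusted p = 0.517 by DESeq2) in the authors' deposited table.

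Genes of the pre-B cell receptor and its signalling had a median of -0.02 in marrow. None of the 13 passed by DESeq2 in the authors' deposited table, where none was higher and 1, the phospholipase gene Plcg2 (-0.18 ± 0.0860, adjusted p = 0.521 by DESeq2), was lower with an unadjusted p below 0.05. Bcl6, a repressor induced in pre-B cells, had -0.16 ± 0.10 (adjusted p = 0.723 by DESeq2, authors' deposited table). The signalling chain genes Cd79a (0.06 ± 0.144) and Cd79b (0.07 ± 0.131), chosen after their values were seen, were near 0 in the authors' deposited table. Of the 13 genes, 4 were above 0 and 9 below. The lowest, named for that, was the heavy chain gene Ighm (-0.46 ± 0.495, adjusted p = 0.907 by DESeq2, authors' deposited table). The 15 genes of IL-7 receptor signalling had a median of -0.07, with no call and 2 higher and 2 lower with an unadjusted p below 0.05. Cish, a STAT5 target, had 0.82 ± 0.365 (adjusted p = 0.444 by DESeq2) and Myc 0.49 ± 0.214 (adjusted p = 0.414 by DESeq2) in the authors' deposited table. The 2 lower ones there, named because their values had been seen, were Pim2 (-0.55 ± 0.259, adjusted p = 0.499 by DESeq2) and Pim1 (-0.22 ± 0.107, adjusted p = 0.530 by DESeq2). Of the 15 genes, 7 were above 0 and 8 below. Other surface and marker genes of progenitor B cells had a median of -0.01 over 9 genes, with no call and 1 lower with an unadjusted p below 0.05. In the authors' deposited table Bst1 (-0.35 ± 0.164, adjusted p = 0.50 by DESeq2) and Akap12 (0.24 ± 0.160, adjusted p = 0.748 by DESeq2) were nearest to the threshold among them.

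Markers of lymphoid and multipotent progenitors had a median of 0.27 over 12 genes, with 3 higher and none lower with an unadjusted p below 0.05. Flt3, a cytokine receptor of early progenitors including those of lymphocytes, was the 1 that passed, at 0.72 ± 0.153 (adjusted p = 0.00177 by DESeq2, authors' deposited table). Mature B cell markers had a median of 0.03 over 18 genes, with no call and 1 lower with an unadjusted p below 0.05, the cytokine gene Ltb (-0.87 ± 0.351, adjusted p = 0.341 by DESeq2, authors' deposited table). Next to it stood Pou2af1, a B cell coactivator gene, at -0.19 ± 0.121 in the authors' deposited table (adjusted p = 0.715 by DESeq2). Their summed computed level was 6619 normalized counts in Cgas-/- marrow and 6480 in dKO marrow, and each was detected, with means of at least 33.9.

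Markers of other cells moved in the same marrow libraries, and in bulk RNA fewer cells of a type and less RNA per cell cannot be told apart. Of 14 monocyte markers, 4 fell past DESeq2's test, beside 0.361% of all genes, and none rose (median -0.32), with summed computed levels of 78292 normalized counts in Cgas-/- marrow and 108808 in dKO marrow. In the authors' deposited table these were Lyz2 (-0.56 ± 0.0892), Ly6c2 (-0.33 ± 0.0794), Ms4a4c (-0.60 ± 0.15) and Csf1r (-0.37 ± 0.0988). Of 20 erythroid markers 1 rose, the globin gene Hbb-bt (0.84 ± 0.223, adjusted p = 0.0370 by DESeq2, authors' deposited table), which has near-identical copies. In all, 19 of the 20 were above 0 (median 0.30), 10 were higher and none lower with an unadjusted p below 0.05, and the summed computed levels were 68608 in Cgas-/- marrow and 38686 in dKO marrow. Of 16 neutrophil markers none passed (median -0.10), Ly6g being at -0.29 ± 0.105 and Csf3r at -0.26 ± 0.113 in the authors' deposited table, and 2 were lower with an unadjusted p below 0.05. No plasma cell or T cell marker passed (medians -0.20 and 0.01), and 1 of each list was lower with an unadjusted p below 0.05, Xbp1 at -0.27 ± 0.0986 and Trbc2 at -0.57 ± 0.261 in the authors' deposited table. The part of these shifts in the members' values was not tested.

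**Figure D3:**
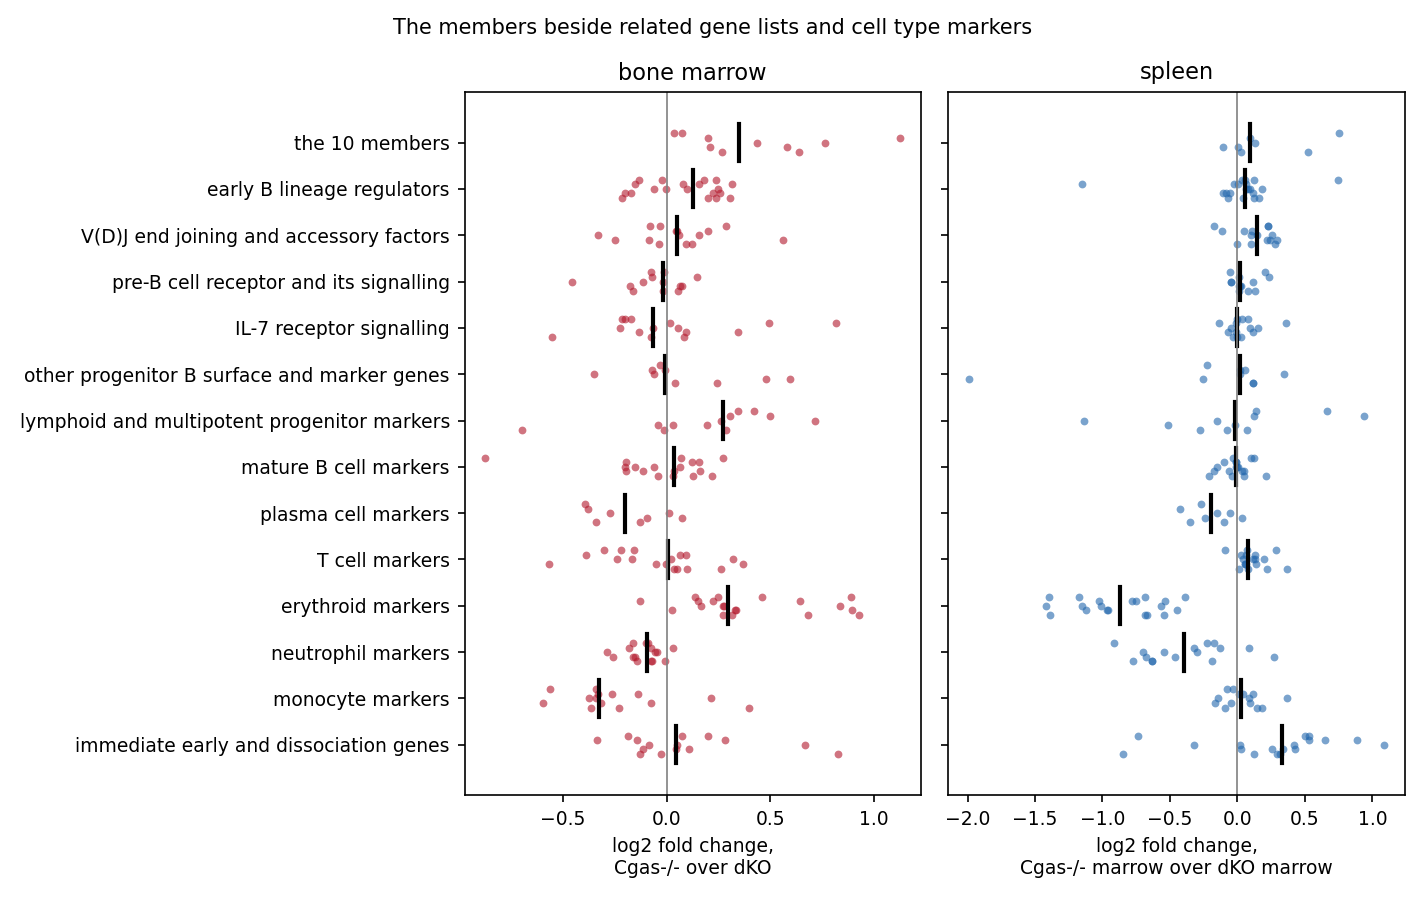
Log2 fold change in bone marrow (left, Cgas-/- over dKO) and spleen (right, Cgas-/- marrow over dKO marrow, on a wider axis) for each listed gene (points) of the members, of genes that work with them and of cell type markers; black bars are medians. In marrow the members' median of 0.35 stands beside 0.30 for erythroid markers and 0.27 for lymphoid and multipotent progenitor markers. Mature B cell markers are at 0.03 and monocyte markers at -0.32. In spleen the members' median is 0.09 beside -0.87 for erythroid markers.

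In spleen, none of the 7 listed members differed past the test between recipients of Cgas-/- marrow and recipients of dKO marrow. The abundant members Ebf1, Pax5, Vpreb3 and Il7r had log2 fold changes between -0.10 and 0.13, and the progenitor genes Dntt, Vpreb1 and Rag1 were detected at levels too low to resolve small changes. By DESeq2 in the authors' deposited table the count was 0 of 7 at an adjusted p of 0.05 (0.133% of all genes tested were called) and 0 of 7 with an unadjusted p below 0.05 (3.02% of all genes). Of the 7, 6 were above 0, as were 45.0% of all genes, and the members' median was 0.09 beside -0.03 for all genes.

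The levels of the members stood in another order in spleen than in marrow. Pax5 had the highest mean in spleen, with a computed 3669 normalized counts in recipients of Cgas-/- marrow and 3445 in recipients of dKO marrow. Its log2 fold change was 0.09 ± 0.0979 in the authors' deposited table (adjusted p = 0.999997 by DESeq2, as for each member in spleen; 5 libraries each). Ebf1 had 2383 normalized counts in recipients of Cgas-/- marrow and 2371 in recipients of dKO marrow (0.01 ± 0.0979 on the log2 scale, authors' deposited table). The interval of its fold, 0.88 to 1.15, overlaps that of Ebf1 in marrow, 0.99 to 1.35. Vpreb3 had 568.2 normalized counts in recipients of Cgas-/- marrow and 610.5 in recipients of dKO marrow and was the 1 member below 0, at -0.10 ± 0.143 in the authors' deposited table. Il7r, which T cells also express, had 422.8 normalized counts in recipients of Cgas-/- marrow and 387.1 in recipients of dKO marrow (0.13 ± 0.161, authors' deposited table). T cell markers had a median of 0.08 in the same spleens, with 17 of 18 above 0, no call by DESeq2 and 2 higher with an unadjusted p below 0.05, and the part of this in the Il7r value was not tested.

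The progenitor genes were scarce in spleen. Dntt had 16.7 normalized counts in recipients of Cgas-/- marrow and 16.4 in recipients of dKO marrow, with a log2 fold change of 0.03 ± 0.349 in the authors' deposited table. Vpreb1 had 10.4 normalized counts in recipients of Cgas-/- marrow and 7.22 in recipients of dKO marrow (0.53 ± 0.419, unadjusted p = 0.209 by DESeq2, authors' deposited table). Rag1, at 2.23 normalized counts in recipients of Cgas-/- marrow and 1.32 in recipients of dKO marrow, had the widest error of the members, 0.76 ± 1.09 in the authors' deposited table. The interval of its fold runs from 0.38 to 7.45.

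The tables were normalized separately, so the members are set against Ebf1 of the same table, as a description over the libraries of a tissue. Rag1 had 0.0745% of the Ebf1 mean in spleen and 11.5% in bone marrow. Dntt had 0.697% in spleen and 8.41% in bone marrow, and Vpreb1 had 0.371% in spleen and 8.32% in bone marrow. Vpreb3 was at 24.8% in spleen and 33.7% in bone marrow, Il7r at 17.0% in spleen and 28.5% in bone marrow, and Pax5 at 149.6% in spleen and 34.4% in bone marrow. Rag2, Vpreb2 and Igll1 had 1.53%, 1.02% and 3.40% of the Ebf1 mean in bone marrow. Relative to Ebf1, the recombination genes Rag1 and Dntt and the surrogate light chain gene Vpreb1 were thus far lower in spleen than in marrow. The annotation behind each tissue's counts is not known. A difference in how a single gene was counted would remain in these percentages, and it was not tested. Mature B cell markers held 0.781% of all summed means in spleen and 0.0674% in bone marrow.

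**Figure D4:**
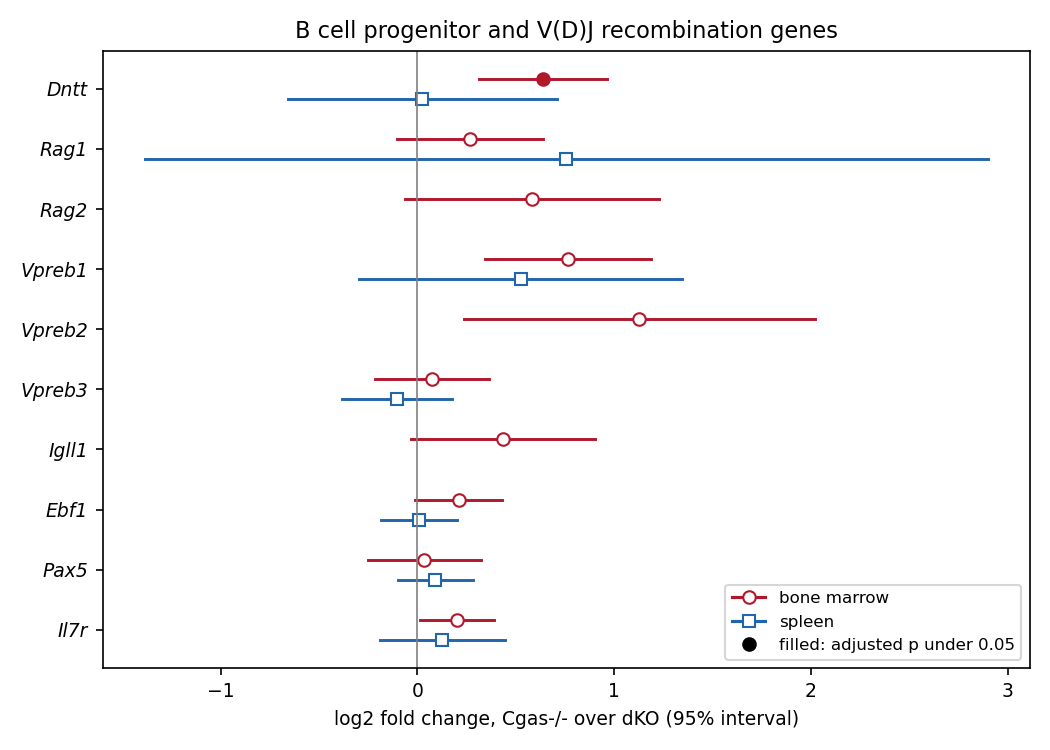
Log2 fold change with its 95% interval for each member in bone marrow (circles, Cgas-/- over dKO) and spleen (squares, recipients of Cgas-/- marrow over recipients of dKO marrow), from the authors' deposited tables. Dntt in bone marrow (0.64) is the 1 filled point, past an adjusted p of 0.05, and the spleen interval of Rag1 is the widest.

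No member's log2 fold change was shown to differ between the tissues. The difference, spleen minus bone marrow, was tested for 13776 genes listed under the same symbol in both tables with a two-sided normal test of z, the comparisons sharing no library. It passed for 0 of 7 members, and for 0.0581% of all genes, and with an unadjusted p below 0.05 there were 0 of 7 members and 4.80% of all genes. Dntt had the lowest difference, -0.61 ± 0.387 (z test across all genes, adjusted p = 0.999), with an interval of -1.37 to 0.15. The intervals for Ebf1 (-0.50 to 0.09), Vpreb3 (-0.58 to 0.22), Il7r (-0.44 to 0.29) and Pax5 (-0.29 to 0.40) also include 0. Those for Vpreb1 (-1.16 to 0.69) and Rag1 (-1.69 to 2.66) are wide. Since the interval of the Dntt difference includes 0, its call in marrow and none in spleen do not show that the response differed.

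The related lists in spleen held no call among the genes that work with the members, by DESeq2 in the authors' deposited table. Medians were 0.06 for the early B lineage regulators, 0.15 for the end joining factors, 0.02 for the pre-B cell receptor genes, -0.00 for IL-7 receptor signalling, 0.02 for progenitor B markers, -0.02 for lymphoid and multipotent progenitor markers and -0.01 for mature B cell markers. With an unadjusted p below 0.05, 2 IL-7 signalling genes were higher, 1 progenitor marker was lower, and 1 mature B cell marker was higher and 1 lower, with none in the other lists of this group. Myc was at 0.36 ± 0.159 in the authors' deposited table. Erythroid markers were below 0 in 20 of 20 (median -0.87, no call by DESeq2, 3 lower with an unadjusted p below 0.05), with summed computed levels of 17913 normalized counts in recipients of Cgas-/- marrow and 26492 in recipients of dKO marrow. Of the immediate early and dissociation genes, Fos rose (1.09 ± 0.158, adjusted p = 8.30e-09 by DESeq2, authors' deposited table), and the list's median was 0.33, with 11 higher with an unadjusted p below 0.05; in bone marrow its median was 0.04, with no call and 1 higher. Neutrophil, monocyte and plasma cell markers had medians of -0.39, 0.03 and -0.20 in spleen, with no call and, with an unadjusted p below 0.05, 1 lower neutrophil gene, 1 lower plasma cell gene, Prdm1 (-0.42 ± 0.154, authors' deposited table), and no monocyte gene. The part of these shifts in the members' spleen values was not tested.

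The targeted genes followed the labels. In the authors' deposited tables Cgas was at -1.13 ± 0.155 on the log2 scale in bone marrow and at -0.92 ± 0.217 in spleen, where it is listed as Mb21d1, and Trex1 was at 1.45 ± 0.178 in bone marrow and at 2.71 ± 0.199 in spleen, each past an adjusted p of 0.05 by DESeq2. Neutrophil markers held 11.2% of all summed means for bone marrow and 0.630% for spleen. Tags outside the deleted part of a gene can still be counted, so a remaining signal checks nothing.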

How the data were processed

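QuantSeq libraries of mouse bone marrow (4 Cgas-/- and 4 dKO) and spleen (5 and 5) were grouped by their labels. No label says that libraries came from separate mice, so the spread behind each p-value is that of these libraries and may be technical. For the upstream steps, the submitters' processing notes list STAR 2.6.1, bcl2fastq 1.8.4, DESeq2 and Partek, with mm10 as the build; counting tool, annotation, strand and gene filter: not given in the sources used here. Each tissue has 1 table of the authors' DESeq2 results, per the file headers. Its mean normalized count is a signal that the authors averaged over libraries. The log2 fold change (Cgas-/- over dKO) and its standard error are the authors' estimates. The Wald score and ranking score are as deposited by the authors. The p-value and its Benjamini-Hochberg value over the table are the authors'. The relations between these columns were checked by recomputing them.

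From these, group means, 95% normal intervals and differences between tissues were computed, the last with p adjusted over all shared genes. The difference test was also run on data simulated under its own normal model. Such a run checks the calculation only, not how well the model holds for these data. The tables list means down to 6.46 in bone marrow and 0.239 in spleen. The depth per library is unknown, and the median standard error for genes with a mean of at least 20 was 0.166 in bone marrow and 0.139 in spleen. The members and lists were chosen with earlier results of these data known. The genes named are all members, Cgas and Trex1, and of each other list the genes past the threshold or, with none, the 2 with the smallest adjusted p; those outside the rule are said to be. Well-measured genes are the 12045 with a mean of at least 20 in bone marrow. Sequences are from RefSeq (GRCm38.p6) and from GENCODE M21, on the same assembly as mm10, which also gave coordinates, counted from 1; all 10 members matched by symbol. Python 3.11.15, pandas 2.3.3, numpy 2.4.6, scipy 1.17.1 and matplotlib 3.10.9 were used.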

Additional observations from a re-analysis of the deposited data

Results flagged for a closer look

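For 2 of the genes named beside the members, the log2 fold change differed between the tissues by the test of the difference itself, spleen minus bone marrow. Trex1 differed by 1.26 ± 0.267 (z test across all shared genes, adjusted p = 0.00432), with log2 fold changes of 2.71 in spleen and 1.45 in bone marrow. Fos differed by 1.20 ± 0.236 (z test across all shared genes, adjusted p = 0.00101), with 1.09 in spleen and -0.11 in bone marrow. No member met this test.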

How the results depend on the processing

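The call of Dntt in bone marrow was kept when p was adjusted over genes with a mean of at least 20, with genes up to 10 Mb from Trex1 or Cgas left out, and with centred log2 fold changes (adjusted p from 0.0274 to 0.121 over these 3 and the next setting). With the Wald score divided by its robust standard deviation, 0 members were called (32 genes in all, against 77), since that deviation is above 1 in bone marrow. At a threshold of 0.1, 2 members were called, Dntt and Vpreb1 (124 genes in all). The count stayed at 0 members under all 5 alternatives in spleen and for the difference between tissues. With the mean of at least 20, only Vpreb3, Ebf1, Pax5 and Il7r remained in both. Dntt, Vpreb1 and Rag1 could not be called in that setting. Over all genes, leaving out those near Trex1 or Cgas left 56 calls in bone marrow, against 77, and 12 in spleen, against 29. For the difference it left 4, against 8. Called genes lie there, and the shares of all genes called given above include them. The members' medians and inverse-variance weighted means ranged from 0.27 to 0.35 in bone marrow and from 0.04 to 0.09 in spleen. The 0.04 was the weighted mean. Centring turned no member's direction. No paired analysis was possible because the tables used here hold no values per library, and for the same reason no replicate could be left out. Low levels in spleen limit what can be said of Dntt, Vpreb1 and Rag1.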
